A study of Mus musculus with 6 samples.

Results

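Glycolysis turns a molecule of glucose into pyruvate in the cytosol, and its middle and lower steps are the subject here, from the isomerase that makes fructose 6-phosphate to pyruvate kinase. The genes were chosen by name from the enzymes of these steps: Gpi1, Aldoa, Aldoc, Tpi1, Gapdh, Pgk1, Pgam1, Eno1, Eno2 and Pkm. The 10 symbols matched 11 gene identifiers of the 32285 in the table, because Aldoa is listed under 2 identifiers. All 11 genes passed the filter on low values, a mean of at least 10 normalised reads over the 6 libraries. Phosphofructokinase acts between Gpi1 and the aldolases and is described below with the rest of the pathway.

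The steps fall into an upper, preparatory part and a lower, payoff part. In the preparatory part Gpi1 isomerises glucose 6-phosphate, aldolase splits fructose bisphosphate and Tpi1 interconverts the resulting triose phosphates. In the payoff part Gapdh reduces NAD+ to NADH, Pgk1 and Pkm make ATP, and Pgam1 and enolase rearrange the intermediates between them. Lactate dehydrogenase, which follows pyruvate kinase, turns NADH back into NAD+, which Gapdh needs. Neural progenitors of the early cortex are known for active glycolysis and lactate production.

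The cells came from wild-type mouse neocortex at embryonic day 10.5. Dissociated cells were placed in culture, and after about 2 h received either GSK2837808A, an inhibitor of lactate dehydrogenase, or the solvent DMSO alone for about 24 h. The labels give the inhibitor at 100 mM, a concentration that is implausibly high for culture medium and could not be checked here. About 1000 living cells positive for the surface protein CD133 (encoded by Prom1) made up each sample, sorted as radial glial progenitors, the dividing stem cells of the cortex, and were sequenced in bulk with a Smart-seq2 protocol. Each group held 3 libraries, called DMSO and GSK. Whether each replicate was its own culture or litter is not stated, so p-values measure only how far these 6 samples scatter, and that scatter may be technical.

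The libraries held 7837721 to 10051625 recovered reads in the DMSO group and 7187089 to 10224348 in the GSK group. Radial glial markers were present in every library, and 7 of 8 were lower in GSK libraries, with summed levels of 19898 to 20498 normalised reads for DMSO and 10602 to 13089 for GSK. Over all tested genes limma called 19.1% lower and 17.0% higher (adjusted p below 0.05). With 1 library left out, limma called 1748 to 3071 genes higher and 2246 to 3227 lower, against 2563 and 2883 with all 6 libraries. Markers of other cells were present as well. Red cell markers were higher for 7 of 8 tested genes (limma adjusted p below 0.05), and their sum ran from 2391 to 20598 in DMSO and from 183780 to 273997 in GSK libraries. That count was 2 or 3 when DMSO replicate 1 or any single GSK library was left out. Globin genes took 0.0268% to 0.234% of normalised reads in DMSO and 2.21% to 2.91% in GSK libraries, with the lowest share in DMSO replicate 3. Genes that overlap ribosomal RNA took 20.2% to 21.6% in DMSO and 23.2% to 26.1% in GSK libraries, so this share also separated the groups, and its part in the results was not tested. Of 8 neuron markers 3 were higher and 1 lower, with sums of 7055 to 14136 against 20505 to 25486, and 5 were higher without DMSO replicate 2 or 3. Of 8 microglia and macrophage markers 5 were higher, with sums of 68.7 to 301.1 against 571 to 1317. Aif1 and Lyz2, which were called, and C1qa, which was not, averaged below 10 normalised reads in DMSO libraries. These genes passed the filter on low values only through their GSK levels, so this count depends in part on that filter. Mesenchymal collagen genes were abundant, with sums of 6 markers of 26497 to 33414 against 16170 to 25384, and 2 were lower, or 1 without DMSO replicate 3 and 4 without GSK replicate 1. Endothelial markers summed to 48.9 to 63.2 against 38.2 to 63.7 and none was called by limma. No marker was at 0 in all 6 libraries, and the part of these cells in the results below was not tested. In such bulk samples, fewer cells of a type and less RNA per cell cannot be told apart.

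The comparison of GSK with DMSO asks how expression differs between CD133-sorted samples given GSK2837808A and those given DMSO alone. Neither lactate nor the activity of lactate dehydrogenase is part of these data. The abundant genes of every payoff step were lower in GSK libraries, and no preparatory gene passed the test; the difference between the groups of steps was not itself tested. Of the 11 genes, 5 fell, namely Gapdh, Pgk1, Pgam1, Eno1 and Pkm, and 1 rose, namely Eno2 (limma on log2 values, adjusted p below 0.05 over the 15073 genes tested). Among all tested genes 36.1% were called, 19.1% lower and 17.0% higher. Among the 1335 abundant genes, averaging 1000 normalised reads or more, 25.5% were called lower and 13.9% higher. The median log2 fold change over the 11 genes was -0.55, against 0.01 over all tested genes. Fold changes are on the scale of log2(value + 1). The same 5 genes were called lower, and Eno2 higher, by edgeR's quasi-likelihood test and by DESeq2 on the recovered reads. Over all tested genes edgeR called 19.9% lower and 16.8% higher, DESeq2 18.1% and 15.9%, and limma with a replicate block 19.8% and 17.7%.

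**Figure D1:**
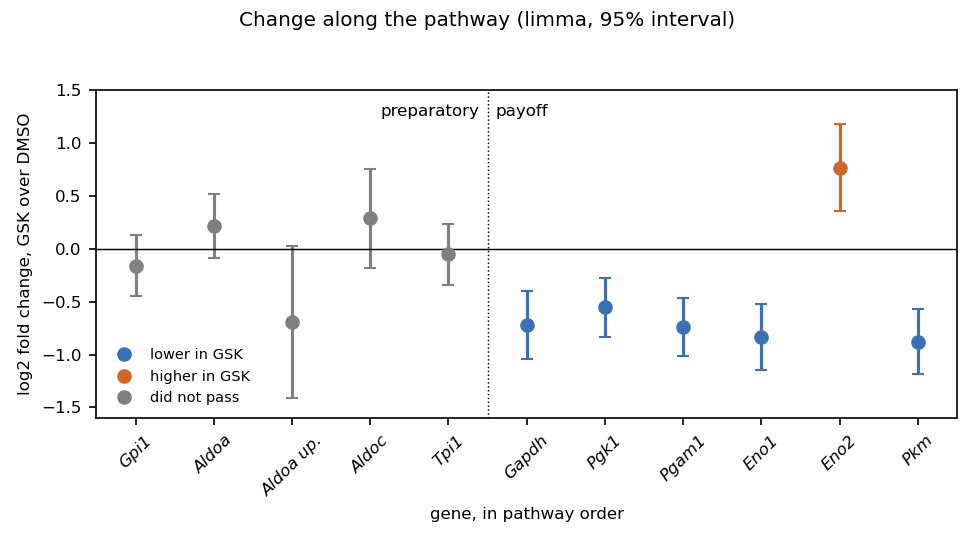
Log2 fold change of GSK over DMSO libraries for the 11 glycolysis genes in pathway order, with 95% intervals from limma (3 libraries per group). Blue points fell, the orange point rose and grey points did not pass the test; the abundant genes right of the dotted line lie between -0.55 and -0.88, and "Aldoa up." is the second identifier of Aldoa.

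The preparatory and payoff genes were also summed in each library. The preparatory genes summed to 6675, 6533 and 6343 normalised reads in the DMSO libraries and to 5530, 6814 and 7639 in the GSK libraries, and the groups overlapped. The payoff genes summed to 27694, 29338 and 26520 in DMSO and to 13936, 16668 and 18315 in GSK libraries, with every GSK library below every DMSO library. The payoff sum was 4.15, 4.49 and 4.18 times the preparatory sum in the DMSO libraries and 2.52, 2.45 and 2.40 times in the GSK libraries. Unlike the sums, this ratio does not depend on the scaling of the libraries. These sums are descriptions without a test, since the genes were chosen with results known. The 11 genes together took 0.405% ± 0.0161 of a DMSO library's normalised reads and 0.257% ± 0.0228 of a GSK library's (SD, n = 3). Of the total without globin genes and genes that overlap ribosomal RNA, they took 0.514% ± 0.0198 and 0.352% ± 0.0299.

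**Figure D2:**
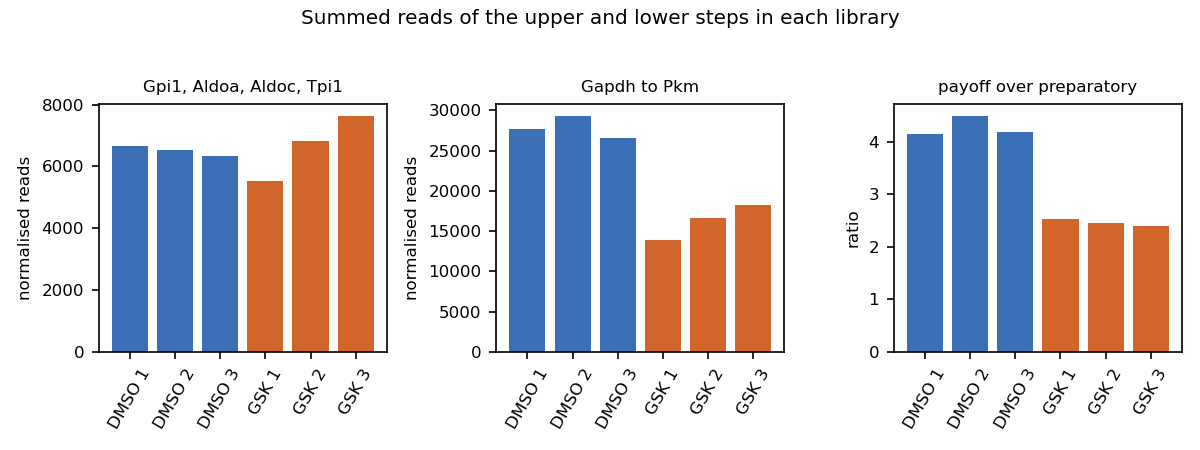
Summed normalised reads of the preparatory genes (left) and payoff genes (middle), and their ratio (right), as 1 bar per library. The preparatory sums of the groups overlap, while the ratio is 4.15 to 4.49 in DMSO and 2.40 to 2.52 in GSK libraries.

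Gpi1, the glucose-6-phosphate isomerase gene (chromosome 7, 34201330 to 34230336, GRCm38), had 2156, 2345 and 2168 normalised reads in the DMSO libraries and 1705, 2047 and 2258 in the GSK libraries. The groups overlapped, with GSK replicate 1 lowest. Its log2 fold change was -0.16 ± 0.14 (SE; limma adjusted p = 0.388), with a 95% interval of -0.44 to 0.13.

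Aldoa, the main aldolase gene of most tissues (chromosome 7, 126795234 to 126800751), had 2368, 2340 and 2335 normalised reads in the DMSO libraries and 2221, 2802 and 3262 in the GSK libraries. The DMSO values lay close together, and the GSK values lay on both sides of them. The log2 fold change was 0.22 ± 0.15 (SE; limma adjusted p = 0.261). Without GSK replicate 1 it was 0.36 and passed the test as higher (adjusted p = 0.00518), so that 1 library decides whether Aldoa is called. The second Aldoa identifier, ENSMUSG00000114515, covers a separate gene model just upstream on the same strand (126800790 to 126809108) and held about 1% as many reads or fewer. It had 23.4, 21.5 and 22.3 normalised reads with DMSO and 14.8, 11.9 and 13.8 with GSK. Its groups did not overlap, yet limma did not call it (log2 fold change -0.69 ± 0.35, SE, adjusted p = 0.127), and 24.4% of tested genes lay wholly lower in GSK libraries. As a percentage of the main Aldoa gene it was 0.918 to 0.987 in DMSO and 0.423 to 0.666 in GSK libraries.

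Tpi1, the triose-phosphate isomerase gene (chromosome 6, 124810586 to 124814296), had 2035, 1761 and 1754 normalised reads in the DMSO libraries and 1517, 1874 and 1982 in the GSK libraries. The groups overlapped almost fully, and the log2 fold change was -0.05 ± 0.14 (SE; limma adjusted p = 0.798, 95% interval -0.34 to 0.23). The sign of the Tpi1 value turned without DMSO replicate 1 or GSK replicate 1.

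Gapdh, whose enzyme oxidises glyceraldehyde 3-phosphate and makes the NADH of the pathway (chromosome 6, 125161715 to 125166467), had 9145, 9487 and 8650.0 normalised reads in the DMSO libraries. It had 4554, 5808 and 6340.0 in the GSK libraries. The highest GSK library stood well below the lowest DMSO library, and the mean GSK level was 0.612 of the DMSO mean. The log2 fold change was -0.72 ± 0.15 (SE; limma adjusted p = 0.000954). Gapdh is often used as a reference gene in expression assays. Within each library Gapdh held 4.94 ± 0.447 times the reads of Tpi1 in the DMSO group and 3.10 ± 0.0982 times in the GSK group (SD, n = 3).

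Pgk1, the phosphoglycerate kinase gene (chromosome X, 106187100 to 106203699), had 1973, 1903 and 1883 normalised reads in the DMSO libraries and 1112, 1379 and 1458 in the GSK libraries. It showed the smallest fall of the 5, with a log2 fold change of -0.55 ± 0.13 (SE; limma adjusted p = 0.00278). Pgam1, the phosphoglycerate mutase gene (chromosome 19, 41911923 to 41918660), had 1551, 1576 and 1506 in DMSO and 799, 940.0 and 1058 in GSK libraries. Its mean in GSK was 0.604 of that in DMSO, and its log2 fold change was -0.74 ± 0.13 (SE; limma adjusted p = 0.000178).

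Eno1, the broadly expressed enolase gene (chromosome 4, 150236721 to 150248879), had 4006, 4329 and 4367 normalised reads in the DMSO libraries and 1867, 2628 and 2722 in the GSK libraries. The groups lay far apart, although GSK replicate 1 was clearly below the other GSK libraries. The log2 fold change was -0.83 ± 0.15 (SE; limma adjusted p = 0.00022).

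Pkm encodes the muscle-type pyruvate kinases, with a pair of alternative exons that give the M1 and M2 forms (chromosome 9, 59656368 to 59679375). It had 10966, 11986 and 10056 normalised reads in the DMSO libraries and 5495, 5823 and 6648 in the GSK libraries. Its fall was the largest among the 11 genes in this fit, with a mean in GSK of 0.544 of the DMSO mean and a log2 fold change of -0.88 ± 0.15 (SE; limma adjusted p = 9.63e-05). The table counts whole genes, so the M1 and M2 forms were not separated. Against Ldha, the lactate dehydrogenase gene of the next step, which itself fell by 0.78 on the log2 scale (limma adjusted p = 0.000424), Pkm kept a ratio of 3.96 to 5.41 in DMSO and 3.97 to 5.12 in GSK libraries.

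**Figure D3:**
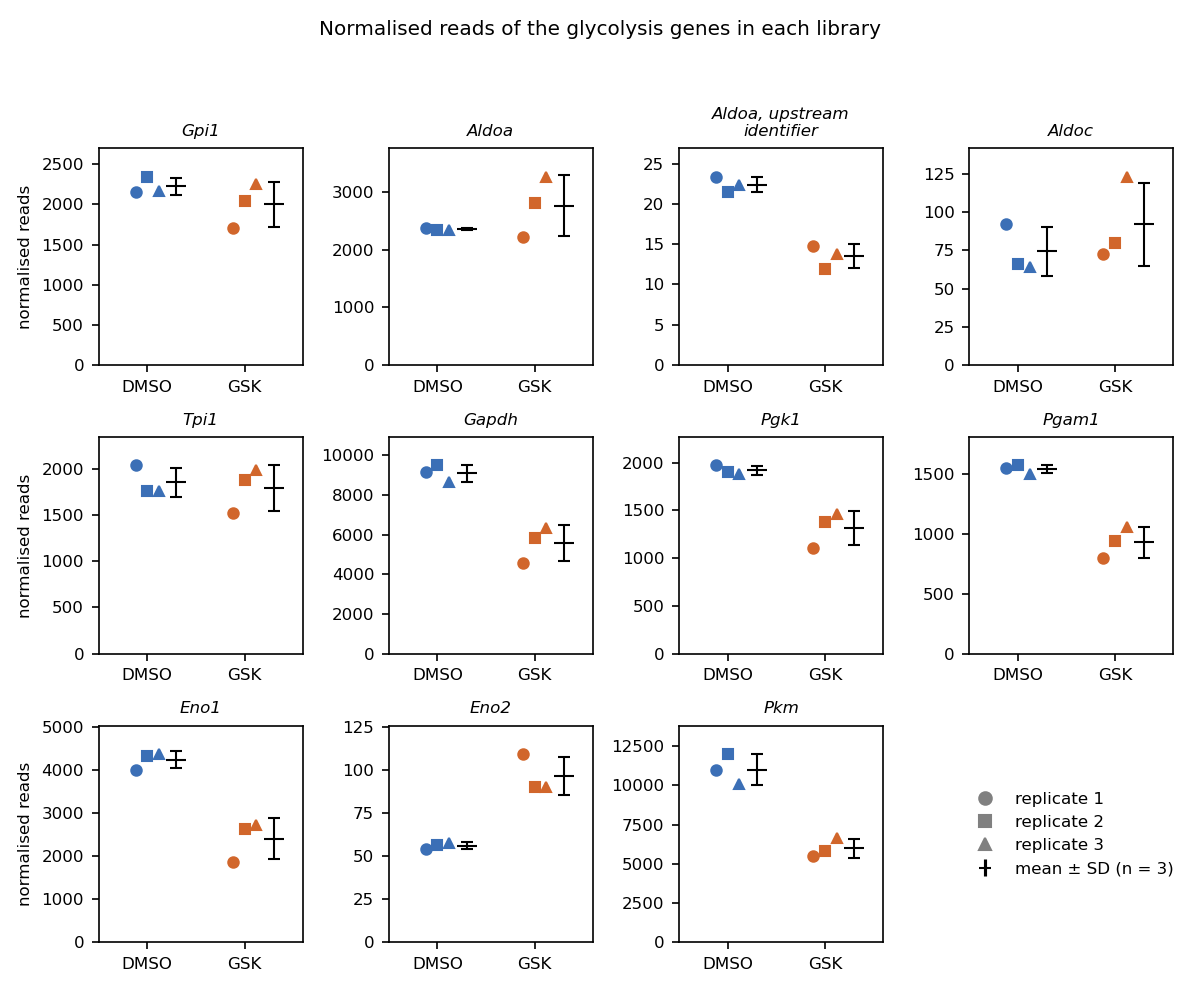
Normalised reads of each of the 11 gene identifiers in the 3 DMSO (blue) and 3 GSK (orange) libraries, on axes from 0, with the mean and SD in black; marker shapes give the replicate number. Gapdh, Pgk1, Pgam1, Eno1, Pkm and the upstream Aldoa identifier lie wholly lower in GSK libraries, Eno2 lies wholly higher, and the other 4 overlap.

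The spread among replicates was wider in the GSK group. The SD relative to the mean was larger in GSK than in DMSO libraries for all 11 genes, and ran from 9.92% to 29.6% in GSK and from 0.750% to 21.3% in DMSO libraries. Among the GSK libraries, 9 of the 11 genes were lowest in replicate 1 and highest in replicate 3. The exceptions were Eno2 and the upstream Aldoa identifier, which were highest in replicate 1. The share of all tested genes with a wider GSK spread or this order was not computed. Neither pattern can therefore be called particular to these genes. The 5 falls passed the test when any single library was left out.

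Enolase and aldolase each have a minor isoenzyme gene, Eno2 and Aldoc. Eno2, known as the enolase of mature neurons (chromosome 6, 124760053 to 124769673), had 54.2, 56.7 and 57.6 normalised reads in the DMSO libraries and 109, 90.05 and 90.2 in the GSK libraries. Every GSK library lay above every DMSO library, and 22.8% of tested genes did so. The log2 fold change was 0.76 ± 0.20 (SE; limma adjusted p = 0.0047). Of the 8 neuron markers 3 rose, Rbfox3, Tubb3 and Stmn2, with log2 fold changes of 1.46, 1.27 and 1.13. Neurod6 fell with -2.20, and Dcx, Map2, Gap43 and Reln did not pass. Over all tested genes 17.0% were called higher and 19.1% lower. The part of neurons in the rise of Eno2 was not tested. The log2 ratio of Eno2 to Eno1 averaged -6.21 ± 0.0248 for DMSO and -4.61 ± 0.458 for GSK (SD, n = 3), a difference of 1.599 (exact permutation test, two-sided: p = 0.1, which is as small as 3 against 3 can give, and 0.2 after adjustment over 2 ratios). Per kilobase of transcript, Eno2 still held only 0.950% to 0.981% of the Eno1 level in DMSO and 2.40% to 4.24% in GSK libraries.

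Aldoc, the aldolase gene of brain and a marker of astrocytes in later life (chromosome 11, 78322968 to 78327781), had 92.4, 66.2 and 64.1 normalised reads in the DMSO libraries and 72.8, 79.9 and 123 in the GSK libraries. The groups overlapped, and limma did not call it (log2 fold change 0.29 ± 0.23, SE, adjusted p = 0.341). The log2 ratio of Aldoc to Aldoa was -4.98 ± 0.278 for DMSO and -4.91 ± 0.199 for GSK (SD, n = 3), and the difference of 0.07 was smaller than the spread between replicates (two-sided exact permutation test, p = 0.8, also after adjustment).

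**Figure D4:**
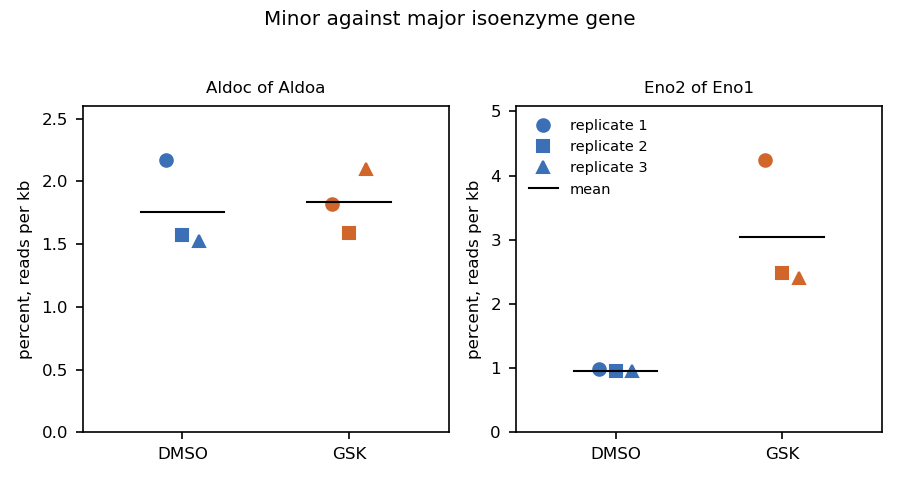
Level of Aldoc as a percentage of Aldoa (left) and of Eno2 as a percentage of Eno1 (right), in reads per kilobase, for each DMSO (blue) and GSK (orange) library, with group means as black lines. The aldolase ratios overlap, and the enolase ratios are below 1% in DMSO and 2.40% to 4.24% in GSK libraries.

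Compared per kilobase of the longest coding transcript, Gapdh had the highest level in DMSO libraries with 6404 ± 296 normalised reads per kilobase. Pkm followed with 4524 ± 397, Eno1 with 2089 ± 97.9, Aldoa with 1516 ± 11.4 and Tpi1 with 1151 ± 99.8. Pgk1, Pgam1 and Gpi1 had 1052 ± 25.8, 870.1 ± 19.8 and 771 ± 36.6 (SD, n = 3 each). The upstream Aldoa identifier, Aldoc and Eno2 lay far below, with 30.2, 26.6 and 20.1, and the first pair overlapped between libraries. In GSK libraries Aldoa, with 1783 ± 337, stood above Eno1, with 1187 ± 231, whose libraries overlapped those of Tpi1. The levels of Pgk1 and Gpi1, of Gpi1 and Pgam1 and of Eno2 and Aldoc also overlapped there. The order depends on the length used: per kilobase of all annotated exons, Gapdh and Pkm overlapped in DMSO libraries, at 2200.4 and 2200.1, followed by Pgk1.

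Several of these genes have close copies that can share reads. Eno1b, a retrogene copy of Eno1 without introns, matched Eno1 at 99.5% identity over 1736 bases and held 14.1% to 14.7% as many reads as Eno1 in DMSO and 14.6% to 15.6% in GSK libraries. It fell as Eno1 did, with a log2 fold change of -0.78 (limma adjusted p = 0.0004), and the reads of this pair may have been split between them. For Gapdh, 180 other annotated genes matched its transcript at 90% identity or more over at least 200 bases, of which 171 are pseudogenes. Only 9 of the 180 have a value in the table, and their reads came to 2.41% of those of Gapdh. Most of these were reads of Peli2, a protein-coding gene with 106 to 210 normalised reads per library, which may be its own expression. None of the others held more than 13.7 in any library. Pkm, Pgk1, Pgam1 and Tpi1 had 9, 4, 3 and 2 such matches and none with a value in the table. Eno1 had 7, Aldoa 6 and Gpi1 2, with a value for only 1 match each. Matches without a value include Gm4735, at 99.6% identity to Eno1 over 1302 bases, and Gm1840, at 98.7% to Gpi1 over 1046 bases. How reads from places without a value were assigned is unknown. Short exon overlaps with genes on the opposite strand touch Gapdh (68 bases with Iffo1), Tpi1 (34 bases with Spsb2) and Aldoa (25 bases with Fam57b). On the opposite strand Gpi1 also shares 741 bases with a lincRNA gene, Gm26762, that has no value in the table. Pkm shares 767 exon bases on the same strand with Gm49759, which is 1 of its 9 matches and has no value either.

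Since the 5 payoff genes fell together, their promoters were read from the RefSeq promoter table (GRCm38.p6), in which all 10 symbols matched with 16 windows. The motifs ACGTG and GCGTG, the core letters bound by hypoxia-inducible factors, were searched on both strands in the 250 bases before each start site. Either core was present in 11 of the 16 windows and in 38.6% of all 32851 windows of the table. All 5 genes that fell held a core in at least 1 window, as did 2 of the 4 that did not pass, Aldoa and Aldoc. The 38.6% is a share of single windows, so it gives no background for genes with several windows. Some windows of Eno1 and of Aldoa overlap and count the same cores again, and Pkm also has a window without a core. The windows of Gpi1, Tpi1 and Eno2 held none of these letters. The E-box CACGTG, whose letters contain ACGTG and which MYC proteins bind, was in none of the 16 windows and in 6.02% of all windows. Such matches are descriptions of sequence and do not show that a factor binds. The windows that overlap no annotated exon are printed 5′ to 3′ on the gene's own strand, with the cores in capitals, to show how these letters lie in 4 genes that fell and in Aldoa, which did not pass. The windows of Pkm overlap annotated exons and are not printed.
Gapdh, chr6:125165774-125166023, minus strand: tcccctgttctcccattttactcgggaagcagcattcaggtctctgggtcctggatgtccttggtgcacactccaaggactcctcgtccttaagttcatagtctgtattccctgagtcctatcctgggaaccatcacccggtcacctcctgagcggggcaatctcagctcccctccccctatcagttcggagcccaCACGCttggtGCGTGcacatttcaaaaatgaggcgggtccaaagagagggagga
Pgk1, chrX:106186850-106187099, plus strand: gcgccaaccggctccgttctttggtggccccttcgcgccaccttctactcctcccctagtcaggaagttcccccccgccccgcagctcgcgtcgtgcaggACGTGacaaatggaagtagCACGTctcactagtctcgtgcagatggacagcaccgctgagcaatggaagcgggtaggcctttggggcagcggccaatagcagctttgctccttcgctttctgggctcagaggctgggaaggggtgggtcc
Pgam1, chr19:41911621-41911870, plus strand: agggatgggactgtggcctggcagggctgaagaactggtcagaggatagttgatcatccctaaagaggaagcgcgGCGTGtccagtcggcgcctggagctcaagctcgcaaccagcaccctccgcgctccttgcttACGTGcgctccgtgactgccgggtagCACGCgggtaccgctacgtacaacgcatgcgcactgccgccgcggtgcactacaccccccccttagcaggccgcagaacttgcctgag
Eno1, chr4:150236458-150236707, plus strand: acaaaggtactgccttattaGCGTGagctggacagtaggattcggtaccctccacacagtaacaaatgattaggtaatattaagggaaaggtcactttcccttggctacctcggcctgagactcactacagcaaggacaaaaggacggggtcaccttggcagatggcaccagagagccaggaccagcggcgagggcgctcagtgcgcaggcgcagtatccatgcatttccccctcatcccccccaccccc
Aldoa, chr7:126799255-126799504, minus strand: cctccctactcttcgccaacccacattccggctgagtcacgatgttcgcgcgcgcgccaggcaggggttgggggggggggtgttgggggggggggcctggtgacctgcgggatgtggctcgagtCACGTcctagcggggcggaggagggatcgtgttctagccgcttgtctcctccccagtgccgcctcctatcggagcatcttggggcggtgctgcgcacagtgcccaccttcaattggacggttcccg
Pgk1 carries a pair of ACGTG cores whose first bases lie at -150 and -131 from the start site, Gapdh a pair of GCGTG cores at -54 and -44, and Pgam1 3 cores at -175, -114 and -88. Eno1 has a single core at -230 in this window and Aldoa one at -126, so the gene that did not pass holds the letters as well.

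Paralogs that are usually restricted to certain tissues went both ways. Of the 7 such genes tested, 4 rose and 1, Eno1b, fell, where 17.0% of all tested genes were called higher and 19.1% lower. Among them, Pklr averaged below 10 normalised reads in DMSO libraries and passed the filter on low values only through its GSK level. The count of rises therefore depends in part on that filter. It also left out Eno4, wholly lower in GSK libraries, and Pgk2 and Aldoart2, whose groups overlapped. Bpgm, whose enzyme makes 2,3-bisphosphoglycerate in red cells, rose from 323 ± 52.8 to 803 ± 97.4 normalised reads (SD, n = 3; limma adjusted p = 6.46e-07). Pklr, the liver and red cell pyruvate kinase gene, rose from 6.43 ± 2.94 to 19.2 ± 6.11, and Pgam2, the muscle mutase gene, from 11.1 ± 3.14 to 32.1 ± 6.61, with limma adjusted p-values of 0.0162 and 0.00306. Gapdhs, the sperm-type gene, rose from 118 ± 4.72 to 189.7 ± 34.7 (limma adjusted p = 0.00474). The red cell markers given above were higher in the same libraries, and their part in the rise of Bpgm and Pklr was not tested. These genes stayed minor: Pklr held at most 0.476% as many reads as Pkm, Pgam2 at most 4.84% as many as Pgam1 and Gapdhs at most 4.52% as many as Gapdh in any library. Eno3, the muscle enolase gene, did not pass (log2 fold change -0.04), nor did Aldoart1, an aldolase retrogene (log2 fold change -0.30). Pgk2, Eno4 and Aldoart2 had means below 10 and were not tested, with at most 8.59 normalised reads in any library.

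The genes of the rest of the pathway went both ways, where 17.0% of all tested genes were called higher and 19.1% lower. Of 14 genes of glucose entry, hexokinase and phosphofructokinase, 13 were tested, of which 4 rose and 3 fell, with a median log2 fold change of 0.32. Without DMSO replicate 1 or 3, only 2 rose, while rises over all tested genes numbered 2111 and 2079, against 2563 with all libraries. Hk2, the inducible hexokinase gene, fell by 2.19 on the log2 scale (limma adjusted p = 5.69e-09), and Pfkfb3, which makes an activator of phosphofructokinase, fell by 0.94. Its relatives Pfkfb1 and Pfkfb4 rose, with log2 fold changes of 1.12 and 0.63. The phosphofructokinase genes Pfkl and Pfkm, which lie between Gpi1 and Aldoa in the pathway, did not pass, with log2 fold changes of -0.02 and 0.09, and Pfkp rose by 0.41. Of 7 tested genes of the lactate and pyruvate step, 3 fell and 1 rose. They were Ldha, the lactate carrier genes Slc16a1 (-0.64) and Slc16a7 (-0.88), and the pyruvate carrier gene Mpc1 (0.73). The groups overlapped for Slc16a7. It was called by limma (adjusted p = 0.0398) and edgeR (0.0383) but not by DESeq2 (0.0636). Without GSK replicate 1, the number of rises among the 7 tested genes was 2, while rises over all tested genes numbered 3071, against 2563.

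Among 10 tested transcription regulators of glycolysis genes, Mycn was the only one called, with a log2 fold change of -2.07 (limma adjusted p = 1.33e-09). Without GSK replicate 1 there were 2 lower and 1 higher. Calls over all tested genes then numbered 3227 lower and 3071 higher, against 2883 and 2563 with all libraries. Hif1a, the oxygen-regulated factor gene, had a log2 fold change of 0.11 and did not pass. Limma called 17.0% of all tested genes higher and 19.1% lower. Of targets of hypoxia-inducible factors outside glycolysis, 7 of 14 tested rose and 1, P4ha2, fell. Their median log2 fold change was 0.38, and edgeR called 6 higher. P4ha2 was not called without GSK replicate 2, and 2 were lower without GSK replicate 3. Bnip3, a mitophagy receptor gene, rose by 1.22, its relative Bnip3l by 1.10, Adm, a peptide hormone gene, by 1.44 and Pdk1, which holds back pyruvate dehydrogenase, by 0.73.

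**Figure D5:**
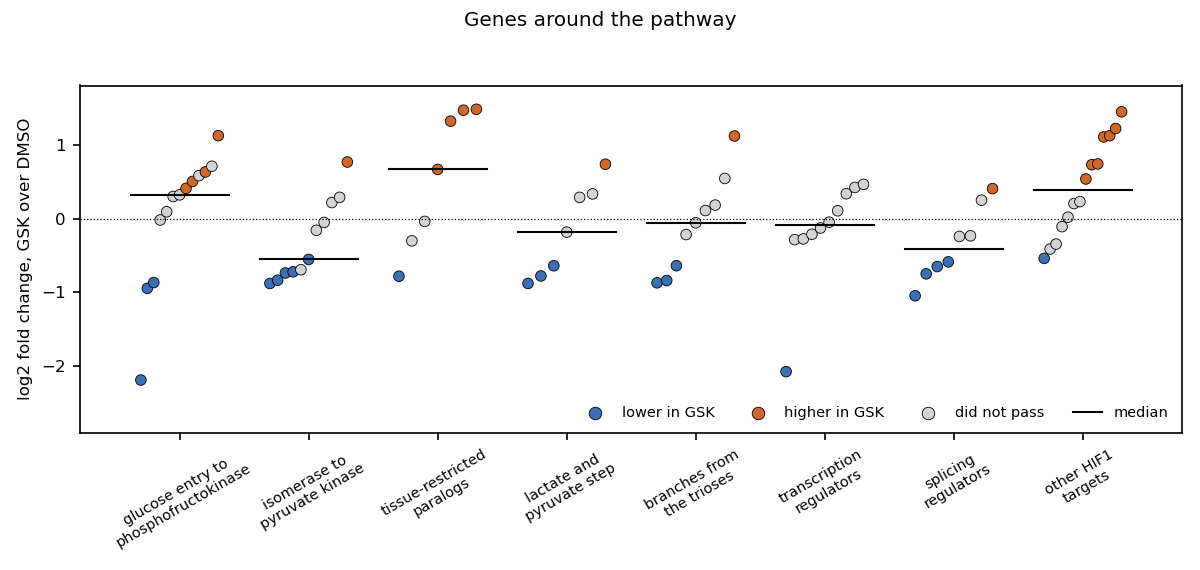
Log2 fold change of GSK over DMSO for the tested genes of each list, as 1 point per gene with a black line at the list's median; blue points fell, orange points rose and grey points did not pass (limma). The isomerase-to-pyruvate-kinase genes have a median of -0.55, and the other HIF1 targets have a median of 0.38.

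The profile of Gapdh lay nearer to those of the other abundant payoff genes than to those of Gpi1, Tpi1 and Aldoa. Likeness was measured as the distance between log2 profiles over the 6 libraries after removing each gene's mean, against 9155 named genes with a mean of at least 100. The nearest to Gapdh were Prmt7, Gcsh and Pgam1, at distances of 0.0843, 0.0858 and 0.0982. Eno1 ranked 74th, Pgk1 86th and Pkm 163rd, while Gpi1 ranked 1847th, Tpi1 2988th and Aldoa 5613th. The nearest to Pkm were Wdr77, Fkbp4 and Tfdp1, at 0.0763, 0.122 and 0.139, with Pgam1 49th and Gapdh 93rd. The nearest to Aldoa were Rbis, Eid1 and Psmd4, at 0.0405, 0.0485 and 0.0646, and Tpi1 ranked 1421st. The distance holds the difference between the groups as well as that between replicates, so it is a description without a test.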

How the data were processed

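RNA from 6 bulk libraries, 3 DMSO and 3 GSK, was measured. The deposited signal values are normalised read counts made by the authors, with 1 value per gene and library. The submitters' processing notes name STAR, DESeq, GRCm38 and mm10 without role or version. The read counter, annotation release and strand setting were not given in the sources used here.

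Each value was repeated on all transcript rows (118098 rows, 32285 genes), so 1 row per gene was kept. In every library 100% of values above 0 were whole multiples of 1 read's value, within 0.01, so whole reads were recovered. Samples were grouped by title. The main test was limma 3.58.1 (R 4.3.3), with trended and robust priors and group as the only term, on log2(value + 1) for 15073 genes averaging 10 or more. Benjamini-Hochberg adjustment ran over all of them, at 0.05. edgeR 4.0.16, which called 5536 genes, and DESeq2 1.42.0 were run on the recovered reads. The script was tested on simulated data. Coordinates and lengths came from GENCODE vM21 (GRCm38), copies from blastn 2.17.0 and promoters from RefSeq. Ratios were compared by exact permutation tests.

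The glycolysis genes and all lists were chosen with earlier results of these data known. All of the glycolysis genes are named. From each other list up to 4 called genes by smallest p are named, and the detected restricted paralogs, of which 1 is not reported here. Other genes were named after their values were seen, among them Pfkl, Pfkm, Pfkp, Hif1a, P4ha2, the single neuron markers, Aif1, Lyz2 and C1qa. Alternatives were other pseudocounts, filters, scalings, tests and thresholds, a replicate block and each library left out. Scaling by a total that leaves out globin genes and genes overlapping ribosomal RNA was added for the gene test after seeing the data.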

Additional observations from a re-analysis of the deposited data

How the results depend on the processing

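The 5 falls of Gapdh, Pgk1, Pgam1, Eno1 and Pkm were called under every alternative run: a pseudocount of 10, other filters, 3 other scalings, edgeR, DESeq2, a threshold of 0.01, a replicate block and each library left out. The count of rises was 1 and became 0 with a mean of at least 100, where Eno2 was not tested, and 1 to 2 with a library left out. The log2 fold change of Pkm ran from -0.96 to -0.81, of Gapdh from -0.82 to -0.58, of Eno1 from -0.93 to -0.66, of Pgam1 from -0.83 to -0.63, of Pgk1 from -0.63 to -0.44 and of Eno2 from 0.67 to 0.81. With a library left out Tpi1 ran from -0.13 to 0.062, turning to 0.018 without DMSO replicate 1 and to 0.062 without GSK replicate 1, uncalled each time; the cause was not tested. The difference in the log2 ratio of Aldoc to Aldoa ran from -0.029 to 0.23 with a library left out, reversing to -0.02 without DMSO replicate 3 and to -0.029 without GSK replicate 3, and that of Eno2 to Eno1 from 1.33 to 1.74. With a library left out, the drop in the summed share of all normalised reads ran from -0.161 to -0.139 percentage points.

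With a library left out, rises numbered 2 to 5 among genes of glucose entry and phosphofructokinase, 1 to 2 in the lactate step, 0 to 1 among regulators, 0 to 1 among splicing regulators, 2 to 5 among neuron markers and 2 to 8 among red cell markers. Falls numbered 1 to 2 among regulators, 0 to 2 among other HIF1 targets and 1 to 4 among mesenchymal markers. Over all tested genes, rises in these fits ran from 1748 to 3071 and falls from 2246 to 3227. With all libraries they numbered 2563 and 2883. edgeR called 1 endothelial marker lower.

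Whether replicate numbers pair the samples is not stated. Deviations of same-numbered libraries correlated at 0.0131, -0.0236 and 0.0529, and those of other pairs at -0.0750 to 0.0720. With 3 libraries per group this check cannot decide whether a culture or litter was shared. The replicate block changed no call among the 11 genes (5 lower, 1 higher) and raised calls over all genes from 5446 to 5642. Genes with a mean below 10 normalised reads were left out of the main test by choice; without that filter 29981 genes were tested, of which 2442 were called higher and 2837 lower.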

Other observations

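Of 9 genes of branches that draw on the middle of glycolysis, 3 fell, 1 rose and 5 did not pass, with a median log2 fold change of -0.057, where 36.1% of all tested genes were called. Phgdh and Psat1, which lead 3-phosphoglycerate into serine synthesis, fell from 2680.1 ± 142 to 1476 ± 221 and from 2790.5 ± 106 to 1795 ± 142 normalised reads (SD, n = 3; limma adjusted p = 5.39e-05 and 0.000668), while Psph, of the last step of that branch, did not pass (log2 fold change 0.18). Gpd2, the mitochondrial glycerol-3-phosphate dehydrogenase gene, fell by 0.84 on the log2 scale. Hagh, which with Glo1 clears methylglyoxal made from triose phosphates, rose by 1.12, and Glo1 did not pass (-0.22). Of the gluconeogenesis genes only Pcx and Pck2 were tested: Pcx, of pyruvate carboxylase, fell by 0.74 and Pck2, of mitochondrial phosphoenolpyruvate carboxykinase, rose by 0.70.

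Among 8 genes of proteins known to steer the choice between the M1 and M2 exons of Pkm, 4 fell and 1 rose. Over all tested genes 19.1% were called lower and 17.0% higher. Ptbp1, which favours M2, fell from 3177 ± 169 to 1891 ± 115 normalised reads (SD, n = 3; limma adjusted p = 0.000139). Nek2, Srsf3 and Ptbp2 fell with log2 fold changes of -1.04, -0.65 and -0.59, and Rbm4b rose by 0.40, a call lost when DMSO 2, DMSO 3 or GSK 2 was left out. Hnrnpa1 and Hnrnpa2b1 did not pass, with log2 fold changes of -0.23 and -0.24. Exon use of Pkm was not measured here.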
